A study of Homo sapiens with 28 samples.

Results

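The 6 genes described here, grouped as neural-type though not confined to neurons, are NCAM1, CADM1, FEZ1, KCNK12, DGKI and BCHE. They were followed across xenograft tumours of 2 human renal carcinoma lines. They had been picked by their values, which were higher in sorafenib-resistant than in untreated A498 tumours, so the A498 values below describe that choice and carry no test. They are 6 of 19775 genes with a probe set that names 1 gene, and 6 of the 13808 genes bright enough to be tested. The measures that the choice did not use are those of the other line, 786-O, which had a sorafenib and a sunitinib arm.

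Tumours had been grown from 10000000 cells of A498 or 786-O injected under the skin of the flank of female athymic nude/beige mice 6 to 8 weeks old. Resistant tumours came from mice given sorafenib (80 mg/kg) or sunitinib (53.6 mg/kg) by gavage on 6 days a week once a tumour measured 12 mm across, and untreated tumours from the same arms. The groups were 5 sorafenib-resistant and 4 untreated A498 tumours, 5 sorafenib-resistant and 5 untreated 786-O tumours, and 4 sunitinib-resistant and 5 untreated 786-O tumours of the sunitinib arm. Tumours were taken at 12 mm or at the 20 mm limit, and the size of each is not given, so treatment and tumour size cannot be told apart. Both drugs inhibit the receptors of vascular endothelial growth factor and of platelet-derived growth factor, and sorafenib also inhibits RAF kinases. Each model is a single established line, grown in mice that lack T cells.

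NCAM1 and CADM1 are adhesion molecules of the immunoglobulin superfamily that join neighbouring cells. Each can bind copies of itself across the gap between membranes. Neurons use them when axons bundle and synapses form. NCAM1 is also made by human natural killer cells and by the progenitor cells of the embryonic kidney, and CADM1 is lost in several carcinomas. FEZ1 hangs cargo onto kinesin motors in axons, KCNK12 is a potassium channel subunit, DGKI removes the lipid messenger diacylglycerol, and BCHE hydrolyses acetylcholine and other choline esters.

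RNA was measured on 28 Affymetrix HG-U133 Plus 2.0 arrays, and values are linear signals that the authors had scaled to an equal trimmed mean on every array. Differences are resistant minus untreated on the log2(signal + 16) scale with the standard error of the fit, a scale that understates changes of dim genes, and folds are those of signal + 16. The brightness limit was the median of all values, a signal of 89.4, and a gene had to exceed it on at least 4 arrays. Within a group, Pearson r of any 2 arrays was 0.949 to 0.971. Whether the tumours of a group grew in separate mice is not stated, and p-values then describe only the spread between these samples, which may be technical. In such bulk RNA, fewer cells of a type and less RNA per cell cannot be told apart, and mouse RNA of the host may bind to some of the human probes. The difference between the 3-prime and 5-prime probe sets of ACTB, a sign of RNA quality, lay between 0.06 and 0.23 in resistant and between 0.09 and 0.17 in untreated A498 tumours. The highest values were 0.674 in 786-O sorafenib-resistant replicate 4 and 1.03 in untreated replicate 5 of the same arm.

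All 6 genes were higher in each resistant A498 tumour than in any untreated one, with differences between 1.49 and 2.05 and a median of 1.70. Over all genes tested, 2.93% were called higher in this comparison, 4.14% were higher without overlap of the groups, and the median difference was 0.03. By size of the difference the 6 genes stood at ranks 6 to 23 of 13808. These values chose the genes and are given as a description.

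**Figure D1:**
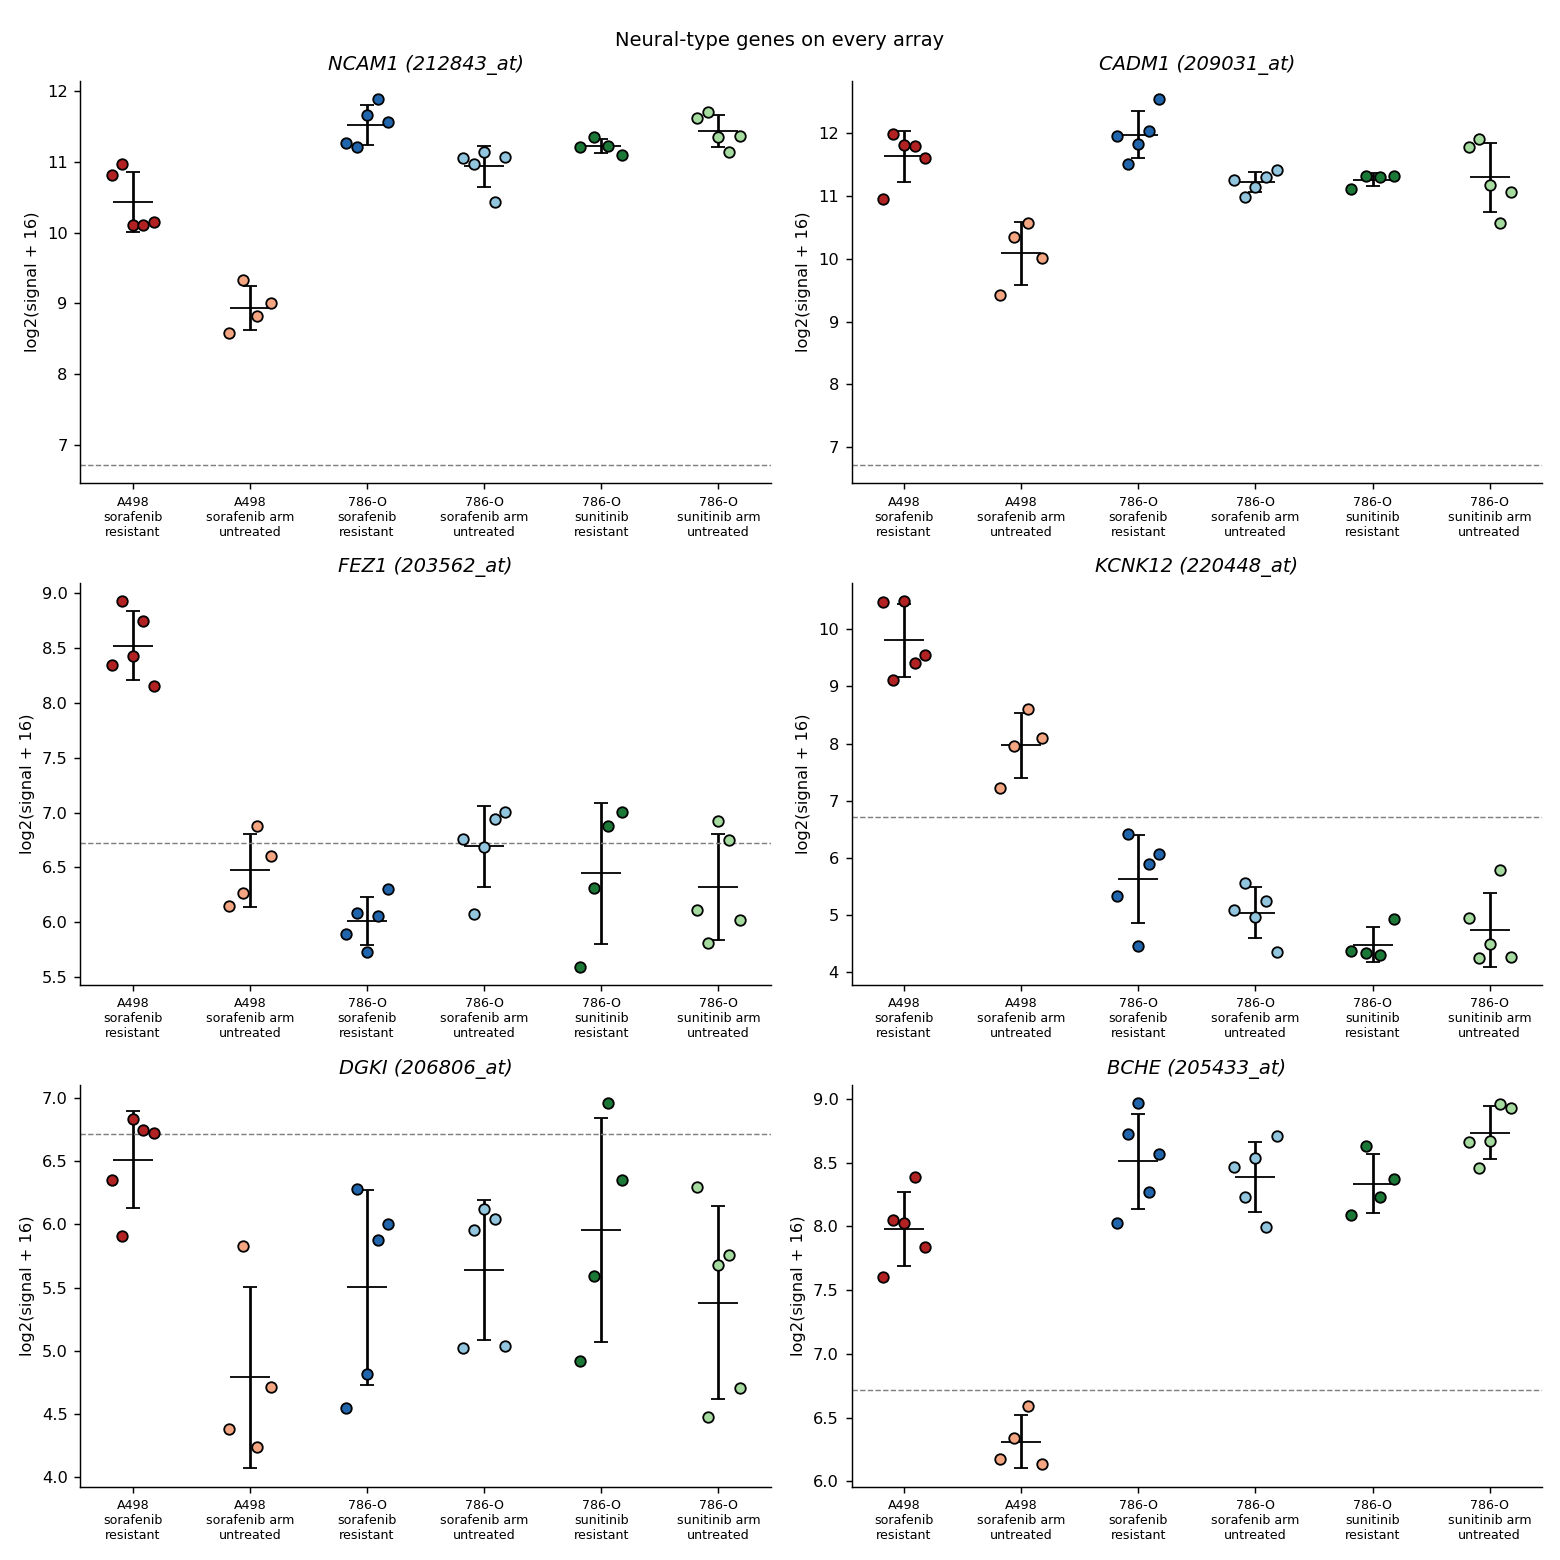
Log2(signal + 16) of each gene's brightest probe set (vertical axis, a separate scale per gene) on all 28 arrays in 6 groups (horizontal axis). Points are tumours, horizontal bars group means, vertical bars SD, and the dashed line is the brightness limit of 6.72. The 5 resistant A498 tumours lie above the 4 untreated ones for every gene, KCNK12 stays below the limit in 786-O, and NCAM1 and BCHE of untreated A498 lie below every 786-O tumour.

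NCAM1, the neural cell adhesion molecule, gave signals of 1789, 1982, 1084, 1090.2 and 1122.5 in the resistant A498 tumours. The untreated A498 tumours gave 368, 629.7, 435 and 497. The lowest resistant value was thus well above the highest untreated value, and the difference was 1.49 ± 0.19, or 2.82-fold. In 786-O tumours resistant to sorafenib the signals were 2452, 2341, 3231, 3760.5 and 2995, all above the untreated values of 2109.6, 1993, 2246, 1359 and 2140.1. NCAM1 rose by 0.58 ± 0.18 in that arm (adjusted p = 0.0307, all 5 resistant tumours above the untreated mean). The call ended without untreated replicate 4 (adjusted p = 0.107) and without resistant replicate 3 (0.0656), 4 (0.0971) or 5 (0.0572). It also ended without the 2 tumours of highest ACTB difference (0.111), with only the arrays of the arm (0.0502), and with the mean over all NCAM1 probe sets (a difference of 0.20, adjusted p = 0.346).

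NCAM1 did not pass the test under sunitinib. Resistant tumours gave 2359.7, 2595, 2372 and 2176, and untreated tumours of that arm gave 3139, 3315, 2588, 2232 and 2625. All 4 resistant tumours lay below the untreated mean, the groups overlapped, and the difference of -0.21 ± 0.19 did not pass the test (adjusted p = 0.607).

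CADM1, which encodes a nectin-like adhesion molecule of synapses and epithelia, gave 1963, 4058, 3583, 3523 and 3079 in resistant A498 tumours. The untreated ones gave 669.9, 1284, 1496 and 1019. The groups did not overlap, and the difference was 1.54 ± 0.25, or 2.91-fold. In the 786-O sorafenib arm resistant tumours gave 3945, 2907, 3617, 4159.8 and 5931, against 2426, 2013, 2239, 2509 and 2704.5 in untreated tumours. Here too the lowest resistant value exceeded the highest untreated one, and CADM1 rose by 0.75 ± 0.24 (adjusted p = 0.0305, 5 of 5 tumours). The call ended without untreated replicate 2 (adjusted p = 0.0688) or 3 (0.0559), without resistant replicate 4 (0.0610) or 5 (0.0967), and without the 2 tumours of highest ACTB difference (0.0741).

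In the sunitinib arm CADM1 gave 2182, 2525, 2510.5 and 2537 in resistant tumours and 3496, 3827, 2294, 1503 and 2114 in untreated ones. The untreated tumours spread widely on both sides of the resistant ones. The difference was -0.04 ± 0.25 (adjusted p = 0.958), and its sign turned to 0.03 when arrays were centred on their median and to 0.01 with array weights.

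FEZ1, the fasciculation and elongation protein that links vesicles to kinesin, also did not overlap between the A498 groups. Its signals were 309, 472, 329, 415 and 269 in resistant tumours and 54.8, 61.0, 101 and 81.5 in untreated tumours. The lowest resistant signal lay far above the highest untreated one, and the difference was 2.05 ± 0.26, or 4.14-fold. Of the 4 untreated A498 tumours 3 were below the brightness limit, so the size of this difference rests on a dim baseline. With a pseudocount of 64 in place of 16 it was 1.60.

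In 786-O the direction of FEZ1 was not the same. Sorafenib-resistant tumours gave 43.6, 51.9, 36.9, 50.5 and 63.2, against 92.4, 51.5, 86.9, 107 and 112 in untreated tumours. All 5 resistant tumours lay below the untreated mean and below the brightness limit, and only untreated replicate 2 overlapped with them. The difference of -0.68 ± 0.25 missed the threshold (adjusted p = 0.0642), and passed it as a fall without untreated replicate 2 (adjusted p = 0.0281) or with only the arrays of the arm (0.0340). In the sunitinib arm resistant tumours gave 32.3, 63.5, 101 and 113 and untreated ones 53.0, 40.1, 106, 91.3 and 49.0, a difference of 0.12 ± 0.26 (adjusted p = 0.852). FEZ1 in 786-O was near the limit in every group.

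The promoter of FEZ1, from 250 bases before to 50 bases after the gene start in RefSeq (GRCh38.p14, chr11:125496216-125496515, minus strand), is shown as 1 of the 3 promoters that could be matched. Capitals mark a CCAAT box.
FEZ1: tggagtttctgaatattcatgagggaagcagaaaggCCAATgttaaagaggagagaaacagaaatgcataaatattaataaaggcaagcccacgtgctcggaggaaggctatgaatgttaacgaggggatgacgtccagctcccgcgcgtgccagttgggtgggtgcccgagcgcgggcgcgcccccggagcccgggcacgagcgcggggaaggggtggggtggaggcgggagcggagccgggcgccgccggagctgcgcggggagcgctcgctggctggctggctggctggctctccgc
It held 64% G and C and 28 CG dinucleotides, where the median promoter of the table held 58.7%. Motifs were searched on both strands. The TATA box was searched as TATAAA, the CCAAT box by those letters and the GC box as GGGCGG. For the AP-1 site the pattern TGANTCA was used, a loose one because N stands for any base. The element that the neuronal repressor REST binds was searched by its left part, TTCAGCACC, and its right part, GGACAG. Of 35116 promoters in the table, 11.5% held the TATA box, 34.6% the CCAAT box and 45.0% the GC box. The loose AP-1 pattern was in 7.71%, the left REST part in 0.376% and the right REST part in 20.5%. In FEZ1 only the CCAAT box was found, at position -214 from the gene start, and a match or its absence is a description of these letters alone.

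KCNK12, a subunit of the tandem pore domain potassium channels that set the resting potential, was measured as a clear signal in A498 alone. Its signals were 1410.3, 539, 1421, 662 and 733 in resistant tumours and 133, 232, 372 and 259 in untreated tumours. The groups did not overlap and the difference was 1.84 ± 0.38, or 3.58-fold. Resistant replicates 1 and 3 were much brighter than the other resistant tumours. All 19 tumours of 786-O lay below the brightness limit, between 3.74 and 69.7 in resistant and between 2.96 and 39.3 in untreated tumours. The differences of 0.59 ± 0.36 under sorafenib (adjusted p = 0.291) and -0.26 ± 0.38 under sunitinib (adjusted p = 0.772) compare values at that level. KCNK12 thus passed the brightness filter only through its A498 arrays.

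DGKI, the iota form of the diacylglycerol kinases, which turn diacylglycerol into phosphatidic acid, was close to or below the brightness limit in every group. Its signals were 65.9, 44.0, 98.2, 91.4 and 89.8 in resistant A498 tumours and 4.75, 40.7, 2.84 and 10.2 in untreated ones. The groups were separated only by the small gap between resistant replicate 2 and untreated replicate 2. The difference was 1.73 ± 0.44 and depended on the pseudocount, with 2.91 at 1 and 0.86 at 64. All 4 untreated values were below the limit, so no fold is given. DGKI exceeded the limit on just 4 arrays, 3 of resistant A498 tumours and 1 of a sunitinib-resistant 786-O tumour.

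In 786-O the signals of DGKI scattered over the same low range in every group. They were 7.34, 61.8, 12.1, 42.8 and 48.0 in sorafenib-resistant tumours, against 16.5, 46.1, 53.6, 49.98 and 16.9 in untreated ones, a difference of -0.13 ± 0.41 (adjusted p = 0.872). Sunitinib-resistant tumours gave 14.3, 32.3, 109 and 65.6, against 62.5, 6.19, 35.1, 38.1 and 10.0 in untreated tumours, a difference of 0.58 ± 0.44 (adjusted p = 0.523). The 95% interval of the sunitinib difference ran from -0.33 to 1.48.

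RefSeq listed 4 starts for DGKI, and the promoter of the second (chr7:137846791-137847090, minus strand) is shown because it held 3 of the motifs searched, as did another entry that overlaps it. Capitals mark the right REST part (CTGTCC on this strand), a CCAAT box (ATTGG on this strand) and a GC box, which do not overlap.
DGKI: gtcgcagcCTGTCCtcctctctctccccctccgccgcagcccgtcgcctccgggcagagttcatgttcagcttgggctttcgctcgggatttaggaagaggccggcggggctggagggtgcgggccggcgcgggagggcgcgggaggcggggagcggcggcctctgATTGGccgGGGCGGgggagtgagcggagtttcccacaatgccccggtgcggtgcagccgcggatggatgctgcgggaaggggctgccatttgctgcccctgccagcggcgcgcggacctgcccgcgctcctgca
It held 73.0% G and C. The matches began at positions -242, -84 and -76 from that gene start.

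BCHE, butyrylcholinesterase, gave 179, 249.6, 245, 319.8 and 213 in resistant A498 tumours. The untreated A498 tumours gave 56.3, 64.8, 80.6 and 54.2, all below the brightness limit. Resistant tumours were all above it, and the difference was 1.67 ± 0.18 (1.24 with a pseudocount of 64). In the 786-O sorafenib arm the signals were 245, 407, 485, 292 and 364 in resistant and 337, 285, 355, 239.7 and 402 in untreated tumours. These groups overlapped throughout, with a difference of 0.12 ± 0.17 (adjusted p = 0.682).

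The sunitinib arm of 786-O gave BCHE signals of 257, 381, 285 and 316 in resistant tumours, against 389, 336, 392, 484 and 471 in untreated tumours. All 4 resistant tumours lay below the untreated mean and 3 of them below every untreated tumour. The difference of -0.40 ± 0.18 had an unadjusted p of 0.0346 and did not pass after adjustment (adjusted p = 0.217).

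The promoter of BCHE (chr3:165837374-165837673, minus strand) is shown as the A- and T-rich counterpart of those above. Capitals mark letters that match the loose AP-1 pattern (TGAATCA, with A at N), the TATA box (TTTATA on this strand) and the CCAAT box. These matches do not overlap, and they describe the letters alone.
BCHE: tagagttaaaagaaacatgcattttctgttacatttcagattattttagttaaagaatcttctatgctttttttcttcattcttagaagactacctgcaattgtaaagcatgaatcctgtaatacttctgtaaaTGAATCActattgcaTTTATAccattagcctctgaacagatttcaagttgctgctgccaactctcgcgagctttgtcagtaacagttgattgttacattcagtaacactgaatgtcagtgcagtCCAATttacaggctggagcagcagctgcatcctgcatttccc
It held 36.7% G and C and 2 CG dinucleotides, with matches at positions -116, -101 and 8. No entry was matched for NCAM1, CADM1 and KCNK12.

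Set side by side, 2 of the 6 genes rose in sorafenib-resistant 786-O tumours, the adhesion molecules NCAM1 and CADM1, and 0 fell. Over all genes 5.97% rose in that arm, 15.2% were called in either direction, and 5.08% were higher without overlap, as these 2 were. KCNK12 and DGKI were below the brightness limit on every array of that arm. In sunitinib-resistant 786-O tumours limma called 0 of the 6, where 5.06% of all genes were called, and BCHE alone had an unadjusted p under 0.05, as 18.7% of all genes had.

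**Figure D2:**
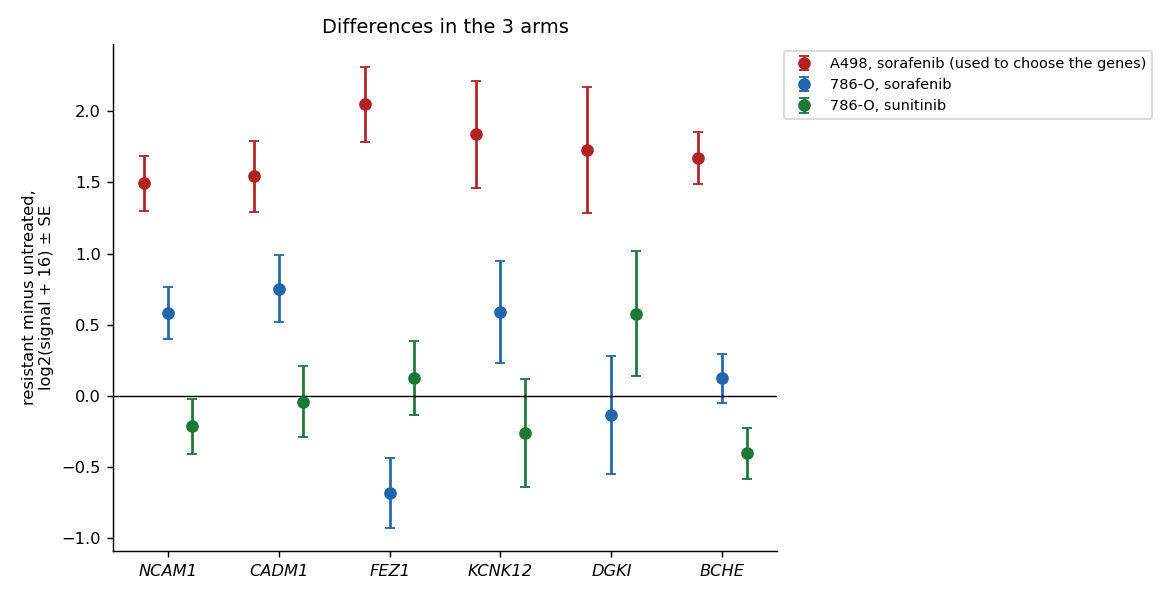
Difference between resistant and untreated tumours in log2(signal + 16) (vertical axis) for each gene (horizontal axis) in the A498 sorafenib, 786-O sorafenib and 786-O sunitinib arms, with the standard error of the fit as bars. The A498 differences, which chose the genes, lie between 1.49 and 2.05, while those of 786-O lie between -0.68 and 0.75.

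The difference between the 786-O arms, sorafenib minus sunitinib, was itself tested and called for 0 of the 6 genes, where limma called 0.949% of all genes. It was 0.79 ± 0.27 for NCAM1 (adjusted p = 0.147), 0.79 ± 0.34 for CADM1 (0.284) and -0.80 ± 0.36 for FEZ1 (0.301). BCHE had 0.53 ± 0.25 (0.329), KCNK12 0.85 ± 0.52 (0.476) and DGKI -0.71 ± 0.60 (0.628). Of the 6, 4 (NCAM1, CADM1, FEZ1 and BCHE) had an unadjusted p under 0.05, where 14.4% of all genes had one. The rise of NCAM1 and CADM1 under sorafenib is therefore not shown to differ from their values under sunitinib.

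Untreated 786-O tumours of the sorafenib and sunitinib arms gave a measure of how far the baseline of 1 line can move. NCAM1 was lower in untreated tumours of the sorafenib arm by -0.50 ± 0.18 (adjusted p = 0.230, unadjusted 0.0108), a shift close in size to its rise of 0.58 in that arm. BCHE differed by -0.35 ± 0.17 (adjusted p = 0.381), FEZ1 by 0.37 ± 0.25 (0.536), KCNK12 by 0.30 ± 0.36 (0.773), DGKI by 0.26 ± 0.41 (0.843) and CADM1 by -0.08 ± 0.24 (0.926). None of the 6 was called by limma, where 0.275% of all genes were, and NCAM1 alone had an unadjusted p under 0.05, as 13.2% of all genes had.

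The order of the 6 groups differed between the genes. NCAM1 averaged 1413.5 ± 436 in resistant A498 and 482.5 ± 111 in untreated A498 tumours (SD, n = 5 and 4). The 4 groups of 786-O averaged between 1969 and 2956, so that resistant A498 was the fifth and untreated A498 the lowest of the 6 groups. Only the step between those last groups was free of overlap. BCHE had the same last places, with 241 ± 52.4 in resistant and 63.97 ± 11.98 in untreated A498 tumours below the 786-O group means of 309.8 to 414. CADM1 of resistant A498, at 3241 ± 794, stood second of the 6 groups and overlapped with those next to it, and untreated A498, at 1117 ± 356, was again lowest without overlap.

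For FEZ1 and KCNK12 resistant A498 was the highest group instead. FEZ1 averaged 359 ± 82.6 there, without overlap with any other group, and the other 5 groups, from 49.2 to 90.0, overlapped with their neighbours in the order. KCNK12 averaged 953 ± 428 in resistant and 248.9 ± 98.3 in untreated A498, each apart from the group below it, and 6.84 to 39.0 in the 786-O groups. For DGKI, resistant A498 was highest and untreated A498 lowest by mean, and each group overlapped with the next.

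Untreated A498 minus untreated 786-O of the sunitinib arm, a description because the same 4 untreated A498 tumours entered the choice, was -2.50 for NCAM1, -2.43 for BCHE and -1.21 for CADM1. These 3 lay below 786-O without overlap. KCNK12 lay above it by 3.22 (4.61 with a pseudocount of 1 and 1.98 with 64), and FEZ1 (0.15) and DGKI (-0.59) overlapped. Between the lines 47.4% of all genes did not overlap and 58.0% were called.

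The 6 genes had 19 probe sets that name 1 gene, 7 for NCAM1, 6 for CADM1, 2 each for FEZ1 and DGKI and 1 each for KCNK12 and BCHE. In A498 all 13 that passed the brightness limit on at least 4 arrays had a positive difference, 10 of them without overlap. This comparison chose the genes, and over all genes tested 4.14% were higher without overlap in it. The 6 dimmer ones had positive differences too, from 0.05 to 0.72, none free of overlap. The probe sets of 1 gene differed in size. NCAM1 gave 1.49 with 212843_at, 1.11 with 227394_at, 0.69 with 231532_at, 0.43 with 217359_s_at and 0.19 with 209968_s_at. CADM1 gave 1.54 with 209031_at, 1.44 with 209030_s_at, 1.69 with 209032_s_at and 0.51 with 232767_at. Averaged over all probe sets of a gene, the A498 difference was 0.60 for NCAM1, 0.98 for CADM1 and 1.12 for FEZ1, whose second probe set gave 0.20.

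**Figure D3:**
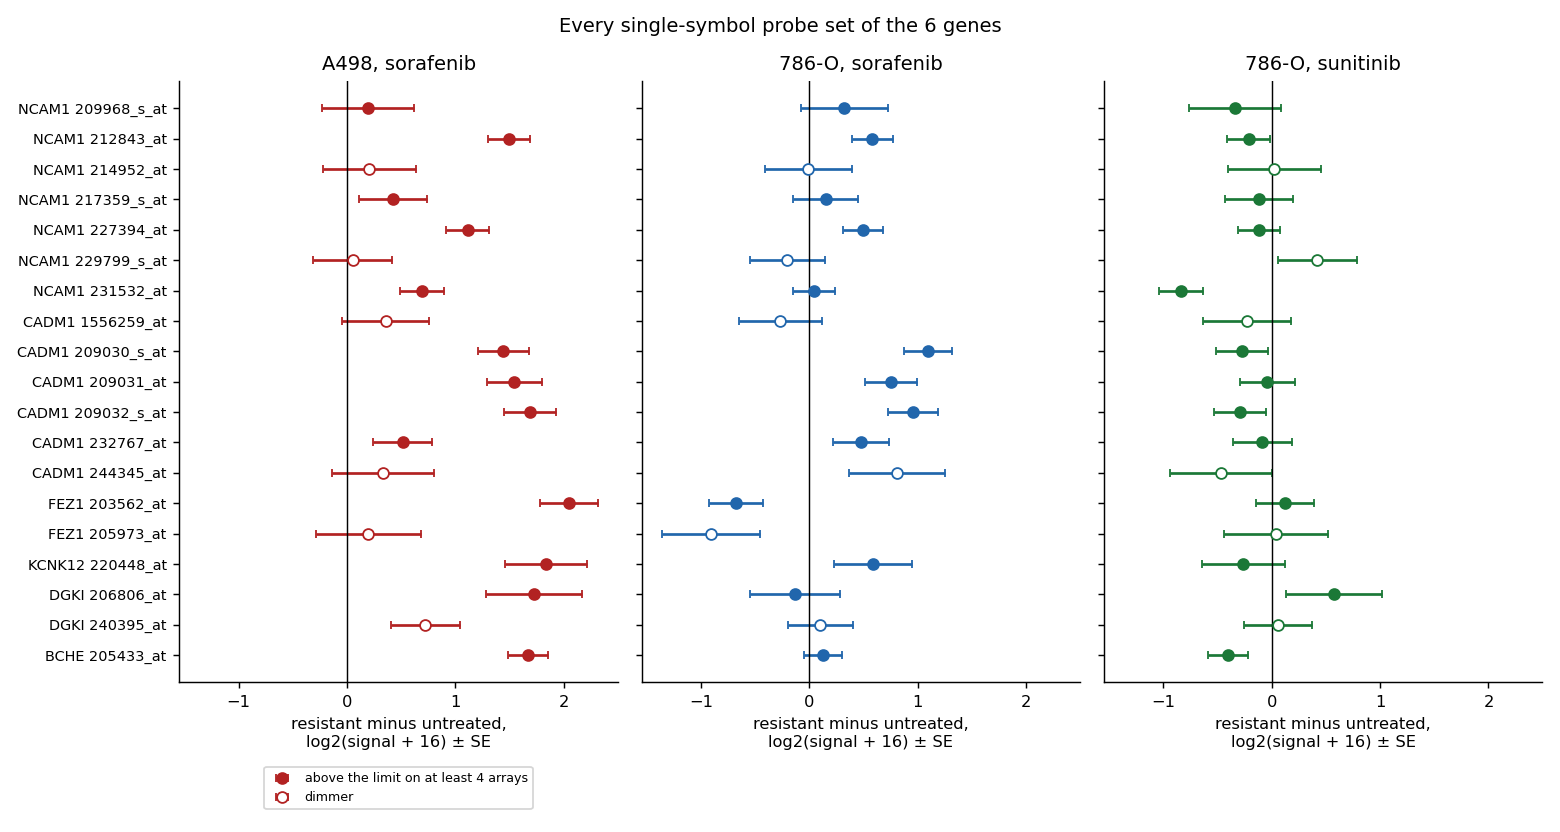
Difference between resistant and untreated tumours in log2(signal + 16) with its standard error (horizontal axis) for all 19 single-gene probe sets of the 6 genes (vertical axis) in the 3 arms. Filled points exceeded the brightness limit on at least 4 arrays and open points did not. Filled points in A498 are all above 0, while 11 of 13 are above 0 in the 786-O sorafenib arm and 2 of 13 in the sunitinib arm.

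In the 786-O sorafenib arm 11 of the 13 brighter probe sets had a positive difference and 4 were above without overlap. Those 4 were 209030_s_at, 209031_at and 209032_s_at of CADM1 and 212843_at of NCAM1. Of the 13, 5 were of NCAM1 and 4 of CADM1, so they are not independent. Over all genes tested 5.08% were higher without overlap in that arm, and the share over all probe sets is not given. Adjusted over 41091 probe sets, CADM1 rose by 1.09 ± 0.22 with 209030_s_at (adjusted p = 0.00272) and by 0.96 ± 0.23 with 209032_s_at (0.0108), while 209031_at (0.0602) missed the threshold in that larger family. The signals of 209030_s_at averaged 3598 ± 720.4 in resistant and 1676 ± 303 in untreated tumours (SD, n = 5 each). NCAM1 with 212843_at had an adjusted p of 0.0634 there. In the sunitinib arm 2 of the 13 were positive. NCAM1 with 231532_at fell by 0.83 ± 0.20 (adjusted p = 0.0363), at 382 ± 65.2 in resistant and 694 ± 125 in untreated tumours (SD, n = 4 and 5), without overlap.

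Around the 6 genes, 184 others with related roles had been listed, of which 111 were bright enough to test. In A498, 7 of these rose and 5 fell, with a median difference of 0.09. That is 6.31% of them rising against 2.93% of all genes, and 27 of the 111 had an unadjusted p under 0.05, against 21.0% of all genes. The count of 12 called fell to 6 without untreated replicate 1, to 5 without untreated replicate 4 or resistant replicate 3, and to 2 with only the A498 arrays, a fit that called 185 genes in all in place of 875. The calls of ENO2, KLC1, WT1, PALS2 and RASGRP1 held without any 1 array, but with only the A498 arrays those of KLC1 (adjusted p = 0.0853), PALS2 (0.0743) and RASGRP1 (0.119) ended. That of KLC1 also ended with the mean of its probe sets (0.30, adjusted p = 0.272). CASK, RASGRP1, SCG5 and RCOR3 are named outside the rule for named genes, after their values were seen.

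Among neuron and neuroendocrine markers 2 of 14 rose and 0 fell in A498, with a median of -0.03. ENO2, the neuronal enolase of glycolysis, rose by 1.34 ± 0.17 (adjusted p = 4.78e-05, no overlap), at a signal of 225 ± 46.9 in resistant and 80.1 ± 25.8 in untreated tumours (SD, n = 5 and 4). SCG5, a chaperone of neuroendocrine secretory granules, rose by 1.70 ± 0.48 (adjusted p = 0.0326), at 251 ± 112 in resistant and 67.1 ± 36.4 in untreated tumours. That call ended without any 1 of 6 of the 9 tumours, up to an adjusted p of 0.145: untreated replicates 1, 2 and 4 and resistant replicates 3, 4 and 5. DCX, CHGA and STMN2, other markers of the list, had differences of -0.69 ± 0.36, -0.94 ± 0.51 and -0.67 ± 0.50 that did not pass, and 16 of the 30 listed were below the limit or not on the array.

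Of 12 other adhesion molecules of the immunoglobulin family 0 rose and 1 fell, with 3 at an unadjusted p under 0.05. PVR, the poliovirus receptor and a nectin-like molecule, fell by 0.61 ± 0.16 (adjusted p = 0.0222), a call that ended without untreated replicate 1 or 4 or resistant replicate 3. L1CAM (0.85 ± 0.39) and NRCAM (0.66 ± 0.37), which bind homophilically in axon bundles, and CADM3 (1.00 ± 0.41), a partner of CADM1 at synapses, did not pass. Of 14 partners of NCAM1 and CADM1 0 rose and 2 fell. PALS2 (-0.66 ± 0.14, adjusted p = 0.00717) and CASK (-0.51 ± 0.13, adjusted p = 0.0154) are scaffold proteins of the membrane-associated guanylate kinase family. CASK lost its call without untreated replicate 1 or 4 or resistant replicate 3, and gave -0.02 (adjusted p = 0.957) with the mean over its probe sets.

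Of 14 genes of kinesin transport and FEZ1 partners, KLC1, a kinesin light chain, rose by 0.45 ± 0.10 (adjusted p = 0.00773), and 0 fell. FEZ2, the paralogue of FEZ1, had 0.18 ± 0.09 (adjusted p = 0.257). Of 6 other KCNK channels 0 were called by limma and 0 had an unadjusted p under 0.05. The 8 cholinergic genes also gave 0 calls, with 1 at an unadjusted p under 0.05, and ACHE, the cholinesterase of synapses, had 0.09 ± 0.17 (adjusted p = 0.816).

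Diacylglycerol signalling gave 2 rises and 2 falls in 22 genes. PLCG1 (0.43 ± 0.12, adjusted p = 0.0248), a phospholipase that makes diacylglycerol, and PRKCA (0.39 ± 0.12, adjusted p = 0.0457), a kinase activated by it, rose. PLCB4, another such phospholipase (-0.65 ± 0.17, adjusted p = 0.0221), and RASGRP1, a RAS activator that diacylglycerol recruits (-1.02 ± 0.24, adjusted p = 0.0103), fell. With the mean of probe sets PLCG1 gave 0.18 (adjusted p = 0.554) and PRKCA 0.20 (0.501). PLCG1, PRKCA and PLCB4 each lost the call without untreated replicate 4 or resistant replicate 3. So did PLCG1 without resistant replicate 5, PLCB4 without untreated replicate 1 or resistant replicate 2, and PRKCA without untreated replicate 1 or resistant replicate 2 or 4. Among REST and its corepressors 1 of 8 rose, RCOR3 (0.45 ± 0.12, adjusted p = 0.0279), and lost the call without untreated replicate 1, 2 or 4 or resistant replicate 3, 4 or 5. With the mean of its probe sets RCOR3 gave 0.23 (adjusted p = 0.432). REST itself, which represses neuronal genes outside the nervous system, had 0.07 ± 0.15 (adjusted p = 0.840). In the nephron progenitor list 1 of 13 rose, WT1, a transcription factor of kidney development (0.93 ± 0.17, adjusted p = 0.00227), at 159 ± 31.0 in resistant and 75.2 ± 10.4 in untreated tumours, without overlap.

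**Figure D4:**
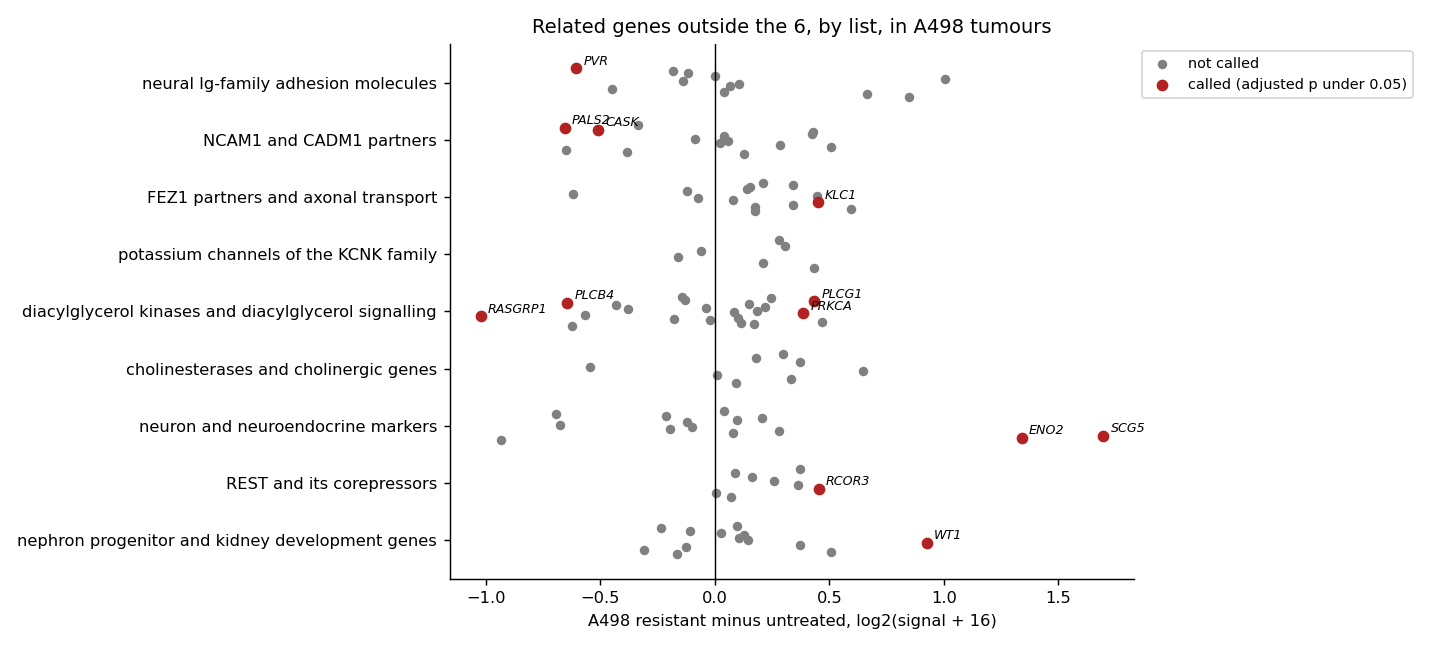
A498 difference in log2(signal + 16) (horizontal axis) of the 111 tested genes with roles related to the 6, by list (vertical axis, points spread for legibility). Red points had an adjusted p under 0.05 and are labelled. ENO2 and SCG5 lie beyond 1.3, and 7 red points are right and 5 left of 0.

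In sorafenib-resistant 786-O tumours 12 of the 111 related genes rose and 17 fell, with a median of -0.05. Over all genes 5.97% rose and 15.2% were called in either direction. Of the 111, 45 had an unadjusted p under 0.05, against 28.4% of all genes. The 29 calls became 19 without the 2 tumours of highest ACTB difference. Of 14 neuron and neuroendocrine markers 2 rose and 3 fell, with a median of -0.27. SCG5 rose by 3.59 ± 0.45 (adjusted p = 4.36e-06) and ENO2 by 0.61 ± 0.16 (0.0120). NEFL, a neurofilament subunit, fell by 0.77 ± 0.15 (adjusted p = 0.000799), STMN2, a regulator of microtubules in growing axons, by 1.48 ± 0.47 (0.0321) and TUBB3, the neuronal tubulin, by 0.34 ± 0.11 (0.0315). The call of STMN2 ended without untreated replicate 1 or 5 or resistant replicate 1, 2 or 5 (adjusted p up to 0.0938). That of TUBB3 ended without untreated replicate 2, 4 or 5 or resistant replicate 3, 4 or 5 (up to 0.0810). GFRA1, a co-receptor for glial cell line-derived neurotrophic factor that can pair with NCAM1, fell by 2.33 ± 0.36 (adjusted p = 7.48e-05), at 17.5 ± 8.93 in resistant and 151 ± 34.1 in untreated tumours. FYN, a kinase downstream of NCAM1, fell by 1.40 ± 0.24 (adjusted p = 0.000227), and PALS2 by 0.87 ± 0.14 (7.45e-05). Of the 14 partners of NCAM1 and CADM1, 4 fell and 1 rose, GFRA2 (0.77 ± 0.22, adjusted p = 0.0179, no overlap). The call of GFRA2 ended without resistant replicate 4 (0.0613). STX1A, a syntaxin of synaptic vesicle fusion, rose by 0.75 ± 0.16 (adjusted p = 0.00175), as did KCNK3, a background potassium channel (1.02 ± 0.23, 0.00311), which gave 0.28 (adjusted p = 0.400) with the mean of its probe sets. Of the 6 KCNK channels 2 rose, KCNK3 and KCNK1 (1.28 ± 0.40, adjusted p = 0.0310). The call of KCNK1 ended in 7 of the 10 fits without 1 array, and with the mean of its probe sets (0.42, adjusted p = 0.335).

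Diacylglycerol signalling in the same arm gave 5 rises and 2 falls in 22 genes. LPIN1, a phosphatase that makes diacylglycerol, rose by 1.23 ± 0.17 (adjusted p = 1.59e-05), and PLCB1, a phospholipase, fell by 1.30 ± 0.17 (6.49e-06). In the nephron list 1 of 13 rose and 4 fell. JAG1, a Notch ligand, fell by 0.95 ± 0.19 (adjusted p = 0.00105) and CDH6, the kidney cadherin, by 0.68 ± 0.13 (0.000840). WT1, which also rose in A498, rose by 0.53, a call that ended in 6 of the 10 fits without 1 array (adjusted p up to 0.0908). Each related gene named here as called in this arm kept its call without any 1 array, except STMN2, TUBB3, GFRA2, KCNK1 and WT1, which were named after their values were seen.

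Sunitinib-resistant 786-O tumours had 2 rises and 6 falls among the 111, where 5.06% of all genes were called. Of the 111, 29 had an unadjusted p under 0.05, against 18.7% of all genes. The count of 8 was 5 without untreated replicate 1 or without resistant replicate 3 or 4, and 4 with only the arrays of the arm. SCG5 (2.20 ± 0.48, adjusted p = 0.00782) and KCNK1, another potassium channel subunit (1.89 ± 0.43, 0.0107), were the 2 that rose, both named after their values were seen. PLCB1 fell by 0.98 ± 0.18 (adjusted p = 0.00266), but gave -0.32 (adjusted p = 0.254) with the mean of its probe sets, and PALS2 fell by 0.72 ± 0.14 (0.00507). With only the arrays of the arm SCG5 (0.0629) and KCNK1 (0.0968) lost their calls. NECTIN3, an adhesion molecule, fell by 0.49 ± 0.11 (adjusted p = 0.0130) and lost the call without resistant replicate 3 (0.0624). The other falls were those of GFRA1 (-1.32 ± 0.39, adjusted p = 0.0453), FYN (-0.90 ± 0.26, 0.0402) and CDH6 (-0.58), which also fell in the sorafenib arm. Their calls ended in 5, 7 and 4 of the 9 fits without 1 array (adjusted p up to 0.18, 0.14 and 0.062). GFRA1, FYN and CDH6 were named in this arm after their values were seen.

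Markers of other cells were read beside these values. Cells of the host are mouse cells, and human probe sets may bind their RNA only in part, so these signals do not count host cells. Natural killer and lymphoid markers, a list that did not hold NCAM1, summed to signals of 397 to 574 in resistant and 376 to 567 in untreated A498 tumours. Of the 3 tested, 0 were called. PTPRC, NKG7, KLRD1 and NCR1 were below the brightness limit or not on the array. Schwann and glial markers summed to 3321 to 4974 in resistant and 3140.2 to 4535 in untreated A498 tumours, and 0 of 4 tested were called. ERBB3 alone averaged 2049.5 ± 577 in resistant and 2533.6 ± 436 in untreated tumours (SD, n = 5 and 4). It made up much of that sum, while SOX10 and S100B were below the limit or not on the array. Each of these lists had 1 gene at an unadjusted p under 0.05. Endothelial markers (1034.5 to 1564 in resistant, 1107 to 1172 in untreated), macrophage markers (984 to 2520.5 in resistant, 1046 to 1212 in untreated) and skeletal muscle markers (563 to 1523 in resistant, 679 to 1398 in untreated) also overlapped, with 0 called by limma and 0, 1 and 1 at an unadjusted p under 0.05.

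Fibroblast and pericyte markers summed to 12126 to 28850.0 in resistant and 8279 to 18012 in untreated A498 tumours, which overlapped. COL5A1, a fibrillar collagen chain, rose by 1.19 ± 0.34 (adjusted p = 0.0329) as 1 of 14, and the median of the list was 0.45. The call of COL5A1 ended without any 1 of 7 of the 9 tumours, all but untreated replicate 3 and resistant replicate 1 (adjusted p up to 0.130). The part of these cells in the A498 values of the 6 genes was not tested. In the 786-O sorafenib arm the same markers summed to 4084 to 6858 in resistant and 8865 to 12386 in untreated tumours, and 7 of 14 fell. There the natural killer and lymphoid markers summed to 499 to 700.2 in resistant and 636 to 866 in untreated tumours, and the glial markers to 864 to 1072 in resistant and 873 to 1058 in untreated tumours. A single gene of the natural killer list fell, and 0 of the glial list were called or had an unadjusted p under 0.05. In the same arm 2 of 7 macrophage markers fell, with a list median of -0.05: AIF1 (-2.33 ± 0.67, adjusted p = 0.0190) and MSR1 (-0.91 ± 0.24, 0.0115). The endothelial TIE1 (-1.70 ± 0.40, 0.00427) fell as 1 of 6, with a list median of 0.07. The muscle marker DES (-0.84 ± 0.27, 0.0376) fell as 1 of 7, with a list median of -0.73. The summed signals of each of these lists overlapped between resistant and untreated tumours, and 15.2% of all genes were called in that arm. The call of AIF1 ended without untreated replicate 4 or resistant replicate 5 (adjusted p up to 0.0548), and that of DES without any 1 of the 10 tumours but resistant replicate 3 (up to 0.114). MSR1 and TIE1 kept theirs without any 1 array. The part of all these cells in the rises of NCAM1 and CADM1 was not tested. Of the renal carcinoma markers, PAX8, PAX2, VIM, KRT8 and KRT18 passed the brightness limit, and CA9 and NDUFA4L2, which clear cell renal carcinoma often expresses, were below it or not on the array. Of the 12 markers of this list that were tested, 0 rose and 1 fell in resistant A498 tumours, with a list median of -0.15. Their summed signals overlapped, at 67918 to 89830 in resistant and 59712 to 87944 in untreated A498 tumours. The fall was that of KRT8, a keratin (-0.44 ± 0.12, adjusted p = 0.0292). Its call ended without untreated replicate 1, 2 or 4 or resistant replicate 3 (up to 0.109). In the 786-O sorafenib arm 1 of the 12 rose and 2 fell, with a list median of 0.05, and the summed signals overlapped. KRT18, the partner keratin of KRT8, rose (0.42 ± 0.12, adjusted p = 0.0222). PAX2, a transcription factor of the kidney lineage, fell (-0.86 ± 0.29, 0.0418), and the other fall was that of CDH6 (-0.68), named above. The call of KRT18 ended without untreated replicate 4 or resistant replicate 1 (adjusted p up to 0.0695), and that of PAX2 without any 1 of the 10 tumours but untreated replicate 2 and resistant replicate 3 (up to 0.120). Their part in the results was not tested either.

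NCAM1, CADM1 and FEZ1 lie on the long arm of chromosome 11, KCNK12 on chromosome 2, DGKI on chromosome 7 and BCHE on chromosome 3. In the order of genes in RefSeq (GRCh38.p14), 81 other tested genes lay between NCAM1 and FEZ1. In A498 0 of them rose by limma and 6 fell, where 2.93% of all genes rose and 875 of 13808 were called in either direction. Of the 81, 16 had an unadjusted p under 0.05, where 21.0% of all genes had one. Their median difference was -0.03, with 0.77 as the highest. The falls were led by NHERF4, a scaffold of brush border transporters (-1.63 ± 0.34, adjusted p = 0.00521), and FXYD2, a subunit of the renal sodium pump (-1.48 ± 0.37, 0.0173, and 0.0506 without resistant replicate 2). DPAGT1, an enzyme of protein N-glycosylation, fell by 0.66 ± 0.11 (adjusted p = 0.000591). SIAE, a sialic acid esterase, fell by 0.68 ± 0.18 (0.0201), lost the call without untreated replicate 1 or 2 or resistant replicate 5, and gave 0.10 when all its probe sets were averaged. With only the A498 arrays 1 of the 81 was called.

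**Figure D5:**
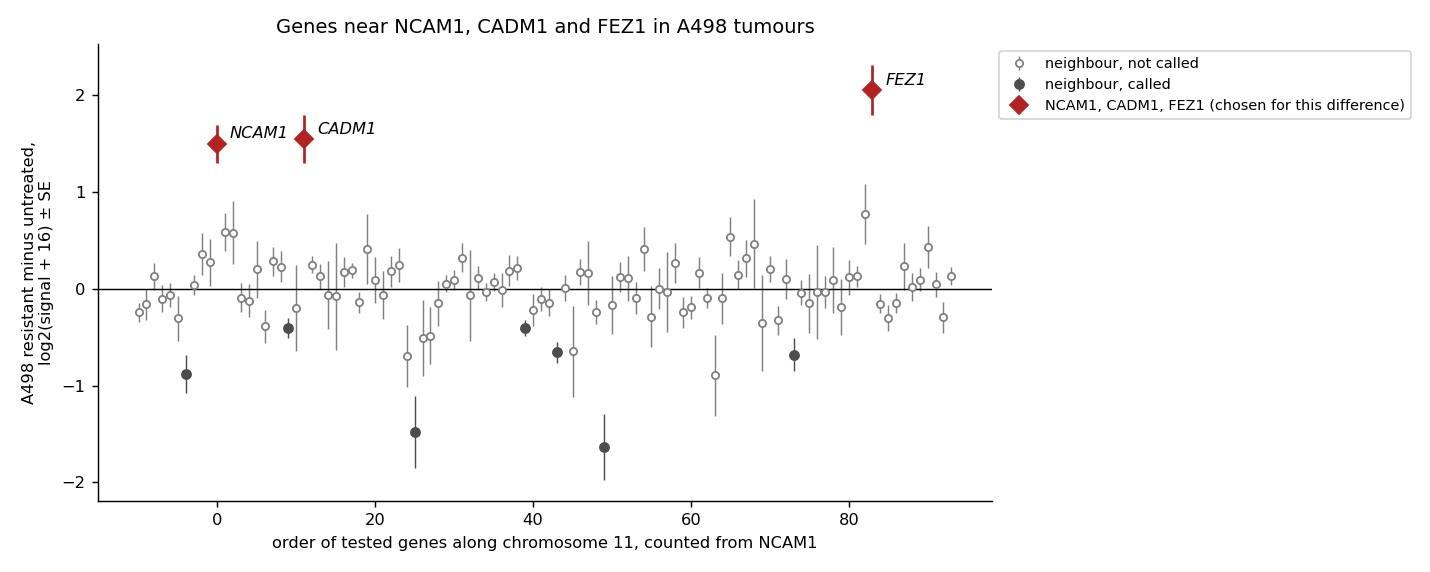
A498 difference in log2(signal + 16) with its standard error (vertical axis) of tested genes in their order along chromosome 11 (horizontal axis, counted from NCAM1). Diamonds are NCAM1, CADM1 and FEZ1, filled grey points are neighbours with an adjusted p under 0.05, and open points the rest. The 3 diamonds lie at 1.49 or above, and none of the 81 genes between NCAM1 and FEZ1 is above 0.77.

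Over the 110 genes that were among the 10 nearest on either side of any of the 6, 2 rose and 4 fell in A498, with a median of 0.03. Over all genes 2.93% rose. An unadjusted p under 0.05 was found for 21 of the 110, and for 21.0% of all genes. BCO2, a carotenoid oxygenase 4 tested genes before NCAM1, fell by 0.88 ± 0.20 (adjusted p = 0.00773). The count of 6 called was 2 without untreated replicate 2, 3 without resistant replicate 5, 11 with array weights and 0 with only the A498 arrays. None of the 20 nearest genes of DGKI or of BCHE was called by limma. Of these, 4 and 2 had an unadjusted p under 0.05, where 21.0% of all genes had one.

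Across all 28 arrays the genes most like each of the 6 differed. NCAM1 was most like MARCHF3 (Pearson r = 0.92), HTRA1 (0.92) and BHLHE41 (0.92), and BCHE was most like NCAM1 (0.89), then HTRA1 (0.87) and BHLHE41 (0.87). CADM1 was most like PSD3 (0.86), LPCAT2 (0.82) and ANKRD27 (0.81). FEZ1 was most like ASNS (0.86), SPMIP4 (0.80) and MFAP4 (0.80), and KCNK12 most like PTGS2 (0.95), CYP4F11 (0.94) and NID1 (0.94). DGKI had only weak likeness, led by CDC25C (0.64). The arrays share 2 lines and 6 groups, so these values follow mainly the group means.

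Within the groups of A498, after removing each group's mean, the 15 pairs among the 6 genes had r between -0.47 and 0.75 over 9 arrays, with a median of 0.08. The highest were CADM1 with BCHE (0.75), CADM1 with FEZ1 (0.64) and FEZ1 with BCHE (0.63), and the lowest was FEZ1 with DGKI (-0.47). On the same measure NCAM1 was most like ACSL5 (0.96), CADM1 like EML1 (0.97), FEZ1 like GNAZ (0.97), KCNK12 like TMLHE (0.96), DGKI like LAPTM4B (0.95) and BCHE like GANAB (0.99). Each is the highest over the other genes ranked, from 9 arrays, and is given as a description. Y-linked genes, XIST, antisense transcripts and genes with provisional symbols, such as LOC, LINC or KIAA, were left out of both rankings.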

How the data were processed

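RNA of 28 xenograft tumours had been labelled with biotin and hybridised to 1-colour Affymetrix HG-U133 Plus 2.0 arrays. The authors deposited linear intensity values per probe set, scaled to an equal trimmed mean on every array. RMA and MAS5 are named, with neither version nor step, per the submitters' processing notes, so the background correction behind the values is not given in the sources used here and can shift dim genes most. The deposited intensities were used as log2(signal + 16). A gene was taken as its single-symbol probe set of highest mean, and 13808 of 19775 genes exceeded the median of all values (signal 89.4) on at least 4 arrays. A linear model with a mean for each of the 6 groups was fitted with limma 3.58.1 (R 4.3.3) to the 28 arrays together, with Benjamini-Hochberg adjustment over all genes and a threshold of 0.05. Probe sets were fitted apart, over 41091. The fit was tested on simulated data. Figures used Python 3.11.15 and matplotlib 3.10.9. The number of arrays limits the precision.

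The members and the gene lists were chosen with earlier results of these data known. Genes outside the 6 were named by a rule: per list, the calls without overlap and with the largest change, up to 3 in A498 and up to 2 in each 786-O arm, up to 5 called neighbours, and the 3 most alike genes. L1CAM, NRCAM, CADM3, FEZ2, ACHE, REST, DCX, CHGA, STMN2, COL5A1 and KRT8 in A498, and ENO2, PALS2, AIF1, MSR1, TIE1, DES, KRT18 and PAX2 in the 786-O sorafenib arm, were named after their values were seen, as were those so marked in the text. Likeness was Pearson r of log2 values. Alternatives covered the pseudocount (1 and 64), the filter, probe set averaging, centring, quantile normalisation, array weights, trended variance, fewer arrays and leaving out each array.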

Additional observations from a re-analysis of the deposited data

Results flagged for a closer look

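In 3 of the 36 combinations of gene and group, 1 tumour lay apart from the rest by Dixon's criterion, which chance meets in about 1 of 20. NCAM1 was lowest in untreated replicate 4 of the 786-O sorafenib arm, at a signal of 1358.8, with 1993 as the next value. This tumour belongs to the untreated side of the NCAM1 rise in that arm, which lost its call without it (adjusted p = 0.107). CADM1 was lowest in sunitinib-resistant 786-O replicate 1, at 2182, with 2510.5 as the next value. KCNK12 was highest in sunitinib-resistant 786-O replicate 4, at 14.7, with 4.66 as the next value, and all of these are below the brightness limit.

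For 3 genes every resistant A498 tumour lay above the untreated mean while every resistant tumour of a 786-O arm lay below its own. The difference between those differences was 1.71 for NCAM1 (A498 sorafenib minus 786-O sunitinib), 2.73 for FEZ1 (A498 sorafenib minus 786-O sorafenib) and 2.08 for BCHE (A498 sorafenib minus 786-O sunitinib). These differences were not tested, since the A498 values chose the genes.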

How the results depend on the processing

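Results were recomputed under 11 other settings and without each of the 28 arrays. Over all genes the 875 called in A498 became 185 with only the arrays of the comparison and 1316 with array weights, the 2092 of the 786-O sorafenib arm 1233 without the 2 arrays of high ACTB difference, and the 698 of the sunitinib arm 259 with only its arrays. The 2 genes called in the 786-O sorafenib arm became 1 with the mean of all probe sets and 0 without the 2 arrays of high ACTB difference, and 0 to 2 without 1 array. The 12 related genes called in A498 became 2 with only the arrays of the comparison and 5 to 13 without 1 array. The 29 of the 786-O sorafenib arm became 19 without the 2 arrays of high ACTB difference and 21 to 26 without 1 array. The 8 of the sunitinib arm became 5 with the mean of probe sets, 4 with only the arrays of the comparison and 5 to 11 without 1 array. Of the genes nearest to the 6, the 6 called became 11 with array weights, 0 with only the arrays of the comparison and 2 to 7 without 1 array. Between NCAM1 and FEZ1 the 6 called became 1 with only the arrays of the comparison and 4 to 7 without 1 array. The median A498 difference of the 6 genes became 1.12 with the mean of probe sets, where DGKI was too dim to enter, and 1.59 to 1.77 without 1 array.

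Signs turned for CADM1 under sunitinib (0.0285 with median centring, 0.0121 with array weights, -0.22 to 0.11 without 1 array) and for SIAE in A498 (0.10 with the mean of probe sets). Without 1 array they also turned for DGKI under sorafenib in 786-O (-0.33 to 0.11), FEZ1 under sunitinib (-0.0619 to 0.41) and CADM1 between untreated 786-O arms (-0.26 to 0.0739). The cause of these changes was not tested, beyond the fewer arrays or other probe sets of each setting. No paired analysis was possible because the labels give no replicate numbers that tie tumours of different groups together.

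Signal over background limits DGKI everywhere, KCNK12 in 786-O, FEZ1 in untreated A498 and in every 786-O group, and BCHE in untreated A498 tumours.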
